A study of Homo sapiens with 15 samples.

Results

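A set of 49 human genes for lysosomes and autophagy, with *GPNMB* among them, was followed through RNA sequencing of BEAS-2B cells, a line of immortalized bronchial epithelial cells. The genes were listed by symbol and found in the deposited table of counts by their Ensembl identifiers, 49 of its 58219 rows. RNA came from 5 conditions with 3 experiments each, 15 libraries in all. The first 3 of the conditions were a single exposure of 24 h to medium alone (vehicle), to 1 µg/cm2 or to 30 µg/cm2 of PM2.5, fine particles collected from urban air. The other conditions were vehicle or 1 µg/cm2 of PM2.5 given daily, with cells collected at 7 days. The labels give a daily dose for 7 days and the methods of the study give 6 exposures before collection on day 7. BEAS-2B is a single transformed line, and the protocols also differed in plating density, so protocol, density and time in culture cannot be told apart.

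Lysosomes are acidic organelles in which acid hydrolases break down protein, glycan, sulfated glycan and lipid that arrive by endocytosis or by autophagy. Their lumen is acidified by the V-ATPase, a rotary proton pump, and many of their genes share the CLEAR element, an E-box bound by the transcription factors TFEB, TFE3 and MITF. Airway epithelial cells take up particles into these compartments. GPNMB is a transmembrane glycoprotein of late endosomes, lysosomes and melanosomes, and it is best known from macrophages and melanocytes, where MITF and its relatives drive it.

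Promoter sequences show how differently the members are built upstream of their start sites. RefSeq promoters (GRCh38.p14, from 250 bases before to 50 bases after a start) were found for 34 of the 49 members. The 7 letters TCACGTG, the core of the CLEAR element, stood on either strand in 9 of these 34 members (26.5%), and in 4.49% of the 27305 genes with a promoter in the table or 6.92% of those tested here. The E-box CACGTG, which every TCACGTG contains, stood in 10 members (29.4%) and in 8.78% of all genes, or 12.0% of those tested. TCATGTG, the core of the M-box bound by MITF, stood in 5 members (14.7%) and in 3.59% of all genes, or 2.57% of those tested. A match is a run of letters and not a mapped binding site. The sequences below are shown because *GPNMB*, *CTSL* and *MAP1LC3B* carry the largest changes and *LAMP1*, a major glycoprotein of the lysosomal membrane, which carried 8 matches to TCACGTG in its 300 bases, did not pass the test at any exposure. Each runs 5′ to 3′ and ends before the RefSeq start, and capitals mark TCACGTG or TCATGTG on either strand.
GPNMB promoter, GRCh38.p14 chr7:23246615-23246774, plus strand: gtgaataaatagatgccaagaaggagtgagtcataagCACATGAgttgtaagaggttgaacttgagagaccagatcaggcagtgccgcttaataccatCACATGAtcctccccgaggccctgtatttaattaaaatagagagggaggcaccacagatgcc
LAMP1 promoter, GRCh38.p14 chr13:113297039-113297238, plus strand: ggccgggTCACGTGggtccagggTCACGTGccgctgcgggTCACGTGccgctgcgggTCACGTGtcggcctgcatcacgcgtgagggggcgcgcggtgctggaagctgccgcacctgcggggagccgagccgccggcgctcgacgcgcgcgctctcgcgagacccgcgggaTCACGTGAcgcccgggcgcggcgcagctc
CTSL promoter, GRCh38.p14 chr9:87725959-87726118, plus strand: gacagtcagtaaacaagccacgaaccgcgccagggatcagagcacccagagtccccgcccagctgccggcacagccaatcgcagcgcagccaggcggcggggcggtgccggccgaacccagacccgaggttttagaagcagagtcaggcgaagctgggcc
MAP1LC3B promoter, GRCh38.p14 chr16:87392176-87392335, plus strand: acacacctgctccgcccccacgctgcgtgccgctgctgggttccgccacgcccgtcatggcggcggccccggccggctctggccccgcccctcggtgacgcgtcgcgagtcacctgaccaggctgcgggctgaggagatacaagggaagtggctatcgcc
The capitals in *GPNMB* are 2 M-box cores read on the reverse strand, from 123 to 117 and from 62 to 56 bases before the start, and its 300 bases held no TCACGTG. The stretches of *GPNMB*, *CTSL* and *MAP1LC3B* lie inside the spans that the deposited table gives these genes, which begin earlier, and that of *LAMP1* ends before its span. The stretch of *LAMP1* shown holds 6 matches in 5 places, since 1 place reads TCACGTG on both strands. No match to any of the 3 motifs was found in the 300 bases of *CTSL*, *MAP1LC3B*, *LIPA*, *NPC1*, *NPC2* or *WIPI1*. Most of the 34 members with a promoter likewise had no match, so this absence does not set these genes apart. Any link between the motifs and the changes was not tested.

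Libraries held 21460981 to 34724765 reads assigned to genes. Values are CPM, each gene's share of the assigned reads scaled to 1000000 reads, with library sizes adjusted by the TMM method of edgeR, and 3 counts in a library equal 0.0864 to 0.140 CPM, a floor for counting error only. A gene was called where the edgeR quasi-likelihood test, fitted to all 15 libraries, gave a Benjamini-Hochberg adjusted p under 0.05 and a log2 fold-change of at least 0.6 in size. Of the members, 48 passed edgeR's filter on low counts and were tested among 17599 genes. The remaining member was *CD68*, a glycoprotein of macrophage lysosomes, whose exons share 1789 bases with another gene on the same strand. All 8 airway epithelial markers were above 3 counts in every library, and 4 of 8 macrophage markers (*PTPRC*, *CD163*, *TYROBP* and *AIF1*) and 1 of 5 melanocyte markers (*TYR*) were at 3 counts or fewer in all of them. Of the other macrophage markers, the lipopolysaccharide co-receptor *CD14* was at 2.301 to 23.4 CPM, and *MARCO*, *CSF1R* and *MRC1* reached at most 38, 33 and 5 counts. Of the other melanocyte markers, *PMEL* reached 137 counts, *TYRP1* 59, *MLANA* 27 and *DCT* 13. All 5 fibroblast markers were also above 3 counts in every library, with a summed level of 44.4 to 91.0 CPM.

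The libraries of experiment 2 of the 24-h protocol stood apart from experiments 1 and 3, and many lysosomal enzymes moved with them. In all 3 conditions, 27 of the 48 tested members were above both other experiments in experiment 2, which 25.5% of all tested genes were, and 7 were below, which 26.9% of all genes were. All 9 glycosidases, 6 of 8 proteases and 4 of 5 genes of lipid breakdown were among the higher members, and none of the 5 autophagy genes was. The 4 sulfatases were divided, with *ARSA* and *SGSH* higher and *ARSB* and *IDS* lower in all 3 conditions, and the membrane proteins and the V-ATPase subunits each had 2 higher and 2 lower. The offset of experiment 2, as the mean log2 difference over the 3 conditions, was 1.31 for *CTSD*, the main aspartic protease of lysosomes. It was 0.98 for *NPC2*, which hands cholesterol to NPC1 in the lumen, and 0.88 for *TFEB*. The largest offset downwards was -0.81, for the cholesterol exporter *NPC1*. The median offset was 0.31 for the members and 0.01 for all tested genes. Mitochondrial genes took 4.13% to 4.40% of counts in these 3 libraries and 2.76% to 3.42% in the other 24-h libraries, and their part in the offsets was not tested. The spread that experiment 2 adds enters every comparison below, so results that depend on it are also given without its libraries, or with a replicate block for the experiment number, since the series record names the number as a batch.

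**Figure D1:**
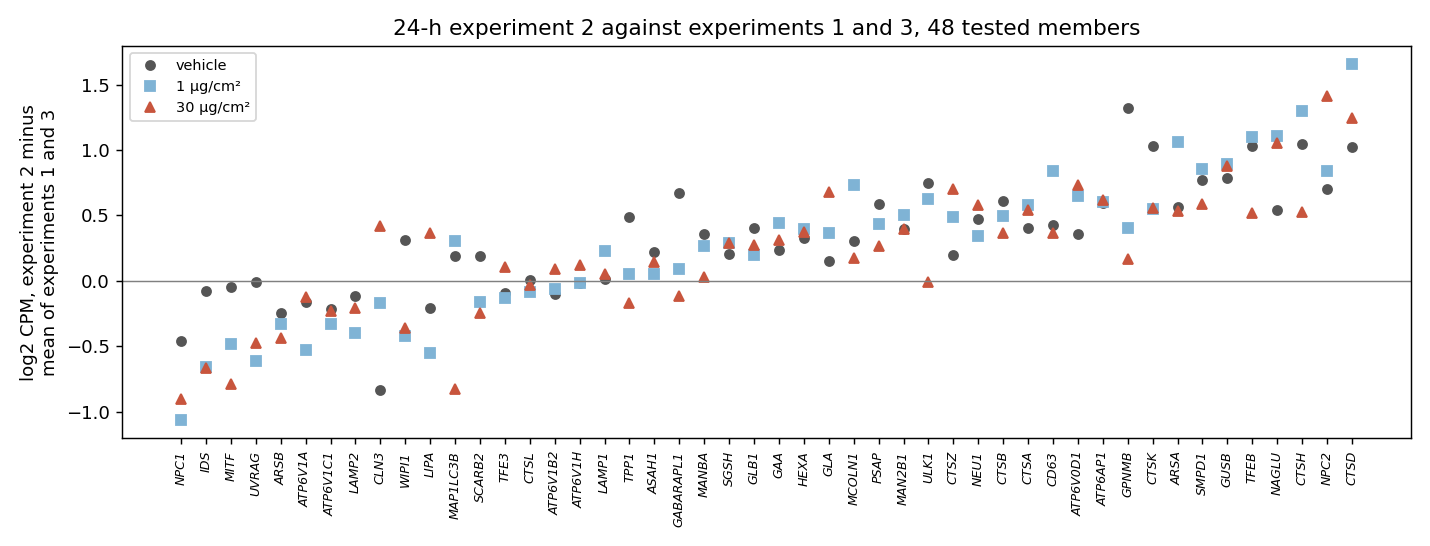
Difference in log2 CPM between experiment 2 and the mean of experiments 1 and 3 of the 24-h protocol, for the 48 tested members on the horizontal axis ordered by their mean offset. Circles, squares and triangles stand for vehicle, 1 and 30 µg/cm2, and the members run from *NPC1* with a mean of -0.81 to *CTSD* with 1.31.

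Per kilobase of exon, which allows a rough comparison of different genes, the members spanned a wide range in the 24-h vehicle controls. The length is the deposited exon length of the gene and not that of the transcripts present, so ranks are approximate. *PSAP*, the precursor of the saposins that present sphingolipids to their hydrolases, led at 333 ± 84.2 CPM per kb (SD, n = 3). *CD63*, a tetraspanin of late endosomes, followed at 214 ± 41.3, the cathepsin *CTSZ* at 141 ± 16.1 and *NPC2* at 110.4 ± 34.0 CPM per kb. The libraries of *CTSZ* and *NPC2* overlapped on this scale, and those of *PSAP*, *CD63* and *CTSZ* did not. *GPNMB* stood near the bottom, 46th of 49, at 2.003 ± 1.16 CPM per kb, between the sialidase *NEU1* at 2.39 ± 0.475 and *MITF* at 1.49 ± 0.0341, and these neighbours did not differ beyond the spread of *GPNMB*. *CLN3*, a membrane protein of lysosomes, stood at 0.0811 ± 0.0253 and *CD68* at 0.0245 ± 0.0217 CPM per kb. *CLN3* shares 2480 exon bases with another gene on the same strand, and how reads there were assigned is not given in the sources used here.

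*GPNMB* (ENSG00000136235.15, GRCh38, chromosome 7 from 23235967 to 23275108) had the largest change of any member, and it lay between the vehicle controls and in the daily protocol. In the 24-h vehicle controls its level was 7.74, 19.9 and 8.18 CPM in experiments 1, 2 and 3. In the 7-day vehicle controls it was 56.5, 52.0 and 70.1 CPM. After daily exposure to 1 µg/cm2 it was 17.3, 18.0 and 15.003 CPM. The 7-day controls were thus above all other libraries of the study, and the daily exposed cells did not overlap them. The highest 24-h control was that of experiment 2, which was above every daily exposed library.

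After daily PM2.5, *GPNMB* fell from a mean of 59.6 ± 9.42 to 16.8 ± 1.56 CPM (SD, n = 3). It was 3.55-fold lower in the fit, or -1.83 on the log2 scale (SE 0.292, adjusted p = 0.0279 by edgeR's quasi-likelihood test after Benjamini-Hochberg correction). Within experiments 1, 2 and 3 the log2 difference was -1.71, -1.53 and -2.22. The fit with the block gave -1.82, at an adjusted p of 0.00123 from the same edgeR test, and a fit of the 6 libraries of this protocol alone gave an adjusted p of 4.21e-05. Without the block, the call ended when any 1 of 8 libraries was left out, with log2 fold-changes between -1.92 and -1.70 over all 15 omissions. These 8 libraries were the 3 controls and the 3 exposed libraries of the 7-day protocol, replicate 3 at 1 µg/cm2 and replicate 1 at 30 µg/cm2. In this comparison, 0.227% of all tested genes were called, and *GPNMB* was the only 1 of the 48 members. The study itself lists *GPNMB* among the genes lowered by daily exposure, with the same log fold-change of -1.83. The members were chosen with that result known, so the call repeats it from the same libraries and is no independent support.

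No fall of *GPNMB* was called after a single exposure. At 1 µg/cm2 for 24 h the level of *GPNMB* was 9.72, 14.4 and 12.1 CPM, and at 30 µg/cm2 it was 15.2, 17.0 and 15.1 CPM. Against vehicle these were log2 differences of 0.02 (SE 0.290) and 0.41 (SE 0.289), neither of which was called. At 30 µg/cm2, treated cells were above vehicle in experiments 1 and 3, by 0.98 and 0.89, and below it in experiment 2, by -0.22. Without experiment 2 the log2 fold-change at 30 µg/cm2 was 0.92 and was called (adjusted p = 0.000196, edgeR quasi-likelihood test).

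The response to daily exposure was tested against each single exposure as a difference of responses. For *GPNMB*, both differences contain the daily fall that was known when the members were chosen, from the same libraries. They are thus no independent support for that fall. The response of *GPNMB* to daily 1 µg/cm2 was lower than that to a single 30 µg/cm2 by a log2 difference of -2.24 (SE 0.409, adjusted p = 0.0134, edgeR quasi-likelihood test). Against a single 1 µg/cm2 the difference was -1.85 (SE 0.409), which was not called (adjusted p = 0.351, same test). In this fit no member was called in this difference, and no gene at all (0.0%), while 1245 genes had an unadjusted p under 0.05. *GPNMB* was called in it with the replicate block (-1.93, adjusted p = 0.0386), where 1.03% of all tested genes were called. It was also called without the block by DESeq2 (-1.86, adjusted p = 0.0102, among 66 genes) and by the edgeR test without 24-h experiment 2 (-2.29, adjusted p = 4.44e-06) or with no filter on low counts (adjusted p = 0.00609).

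**Figure D2:**
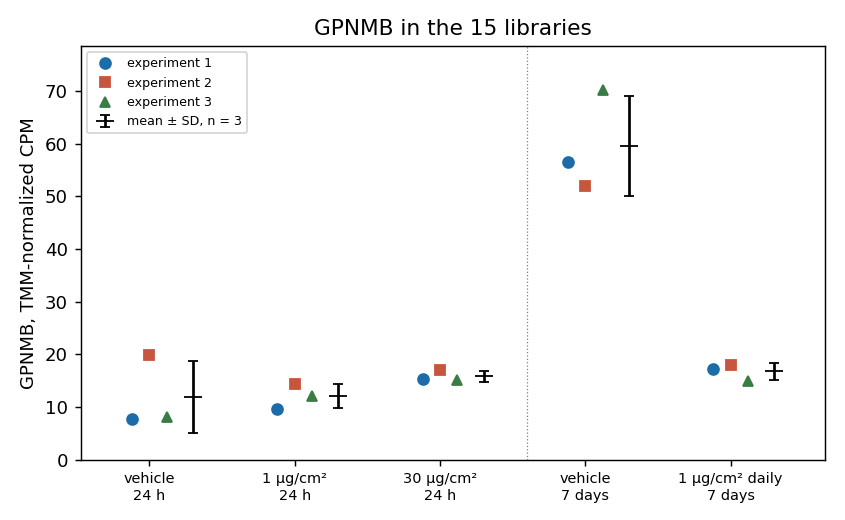
TMM-normalized CPM of *GPNMB* (vertical axis) in the 15 libraries by condition (horizontal axis), with 1 symbol per experiment and the mean ± SD of 3 experiments beside them. The 3 vehicle controls at 7 days lie between 52.0 and 70.1 CPM and every other library at or below 19.9 CPM.

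Markers of cells that express *GPNMB* strongly were examined beside its fall. The summed level of 8 macrophage markers was 12.3 to 14.3 CPM in the 7-day controls and 8.80 to 11.1 CPM after daily exposure. Most of this sum was *CD14*, at 12.1, 10.9 and 11.1 CPM in those controls and 8.65, 9.79 and 7.11 CPM after daily exposure, lower without overlap, as *GPNMB* was. The scavenger receptor *MARCO* was at 0.0602, 0 and 0.142 CPM in the 24-h controls, 0.912, 0.771 and 1.07 CPM in the 7-day controls and 0.551, 0.693 and 1.19 CPM after daily exposure, so it was higher at 7 days in both groups. *CSF1R*, the receptor for a macrophage growth factor, was at 1.25, 0.707 and 0.91 CPM in the 7-day controls. After daily exposure it was at 0.681, 0.578 and 0.405 CPM, again without overlap. These levels were low, at most 33 counts in a control and 21 in an exposed library, and the closest libraries nearly met. Of all tested genes, 21.6% were lower without overlap after daily exposure. The markers *PTPRC*, *CD163*, *TYROBP* and *AIF1* were at 0 in all 6 libraries of this protocol. The summed level of 5 melanocyte markers was 4.80 to 5.34 CPM in those controls and 5.09 to 5.43 CPM after daily exposure. The 8 airway epithelial markers summed to 3003 to 3580.1 CPM in the controls and to 1963 to 2237 CPM after daily exposure. They did not all move alike. *EPCAM* was at 86.8, 76.6 and 79.2 CPM in the controls and 99.2, 90.4 and 72.8 CPM after daily exposure. The other epithelial markers, mostly keratins by level, were below their control in each experiment. The part of all these markers in the result was not tested, and in bulk RNA fewer cells of a type and less RNA per cell cannot be told apart.

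The other members showed smaller differences after daily exposure, most of them below 0. Of the 47 tested members besides *GPNMB*, 36 had a log2 fold-change below 0, and the median was -0.16. Of all tested genes 48.9% were below 0, with a median of 0.01. With *GPNMB* counted, all 9 pairs of an exposed and a control library were lower in 23 of 48 members, which 21.6% of all tested genes were. All 9 pairs were higher in 6 members, which 21.3% of all genes were. Without replicate 3 of the exposed cells, which was the lowest in several members, the pairs were all lower in 23 members and in 29.3% of all genes. These counts are descriptions. The 5 genes of lipid breakdown and transfer were lower in all 9 pairs each, with log2 fold-changes of -0.13 for the acid ceramidase *ASAH1* to -0.30 for *PSAP*, none of which was called. The lower members also held the beta-mannosidase *MANBA*, at 59.5, 58.7 and 59.9 CPM in controls and 41.9, 43.8 and 37.2 CPM after exposure, and the glucocerebrosidase receptor *SCARB2*, at 302, 288 and 311 CPM and 237, 235 and 243 CPM. Their log2 fold-changes of -0.53 and -0.33 did not pass the test. The 103 other genes fixed as related lists (further V-ATPase subunits, autophagy machinery, autophagy receptors, lysosomal control of mTORC1, and delivery to lysosomes) had 49 below 0 and 54 above, a median of 0.02, and none called.

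Of the 11 members above 0 after daily exposure, *MAP1LC3B* was farthest from it. It encodes the LC3B protein that is attached to autophagosome membranes. Its level was 46.3, 43.9 and 46.6 CPM in the 7-day controls and 77.9, 73.8 and 84.8 CPM after daily exposure, with no overlap. The log2 fold-change of 0.79 (SE 0.187) was not called over all 15 libraries (adjusted p = 0.105, edgeR quasi-likelihood test) and was called with the replicate block (adjusted p = 0.0174), where 4.39% of all tested genes were called. The block also called *WIPI1*, a phosphoinositide-binding protein of the growing autophagosome, with a log2 fold-change of -0.61 (adjusted p = 0.0221 against 0.139 without the block). *WIPI1* was at 40.1, 38.1 and 42.7 CPM in controls and 27.3, 29.4 and 22.6 CPM after exposure. It shares 828 exon bases with *ARSG* on the other strand, and the strand used in counting is not given in the sources used here. With the libraries of 24-h experiment 2 left out, the same 3 members were called, where 6.03% of all tested genes were. The remaining autophagy members *ULK1*, the kinase that starts autophagy, *GABARAPL1*, a relative of LC3B, and *UVRAG*, a partner of the Beclin complex, were not called.

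At 30 µg/cm2 for 24 h, 3 members were called against vehicle, *CTSL* and *MAP1LC3B* higher and *LIPA* lower, which is 3 of 48 where 8.07% of all tested genes were called, a share close to that of all genes. The median log2 fold-change of the members was 0.00 and that of all genes 0.03, and 24 members were above 0 and 24 below. In 8 members the 9 pairs all went one way, 4 up and 4 down, which 22.8% of all genes did. Without experiment 2, 38 members had all 4 remaining pairs one way, and 69.4% of all genes did. The summed airway epithelial markers were 3673 to 4189 CPM in the 24-h controls and 1576 to 2635 CPM at 30 µg/cm2. In experiment 2, the keratins *KRT7* (1151 CPM in vehicle, 1326 CPM treated) and *KRT18* (396 and 404 CPM) were above vehicle. Both were below it in experiments 1 and 3, and the other epithelial markers were below vehicle in each experiment. The part of these markers in the changes was not tested.

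**Figure D3:**
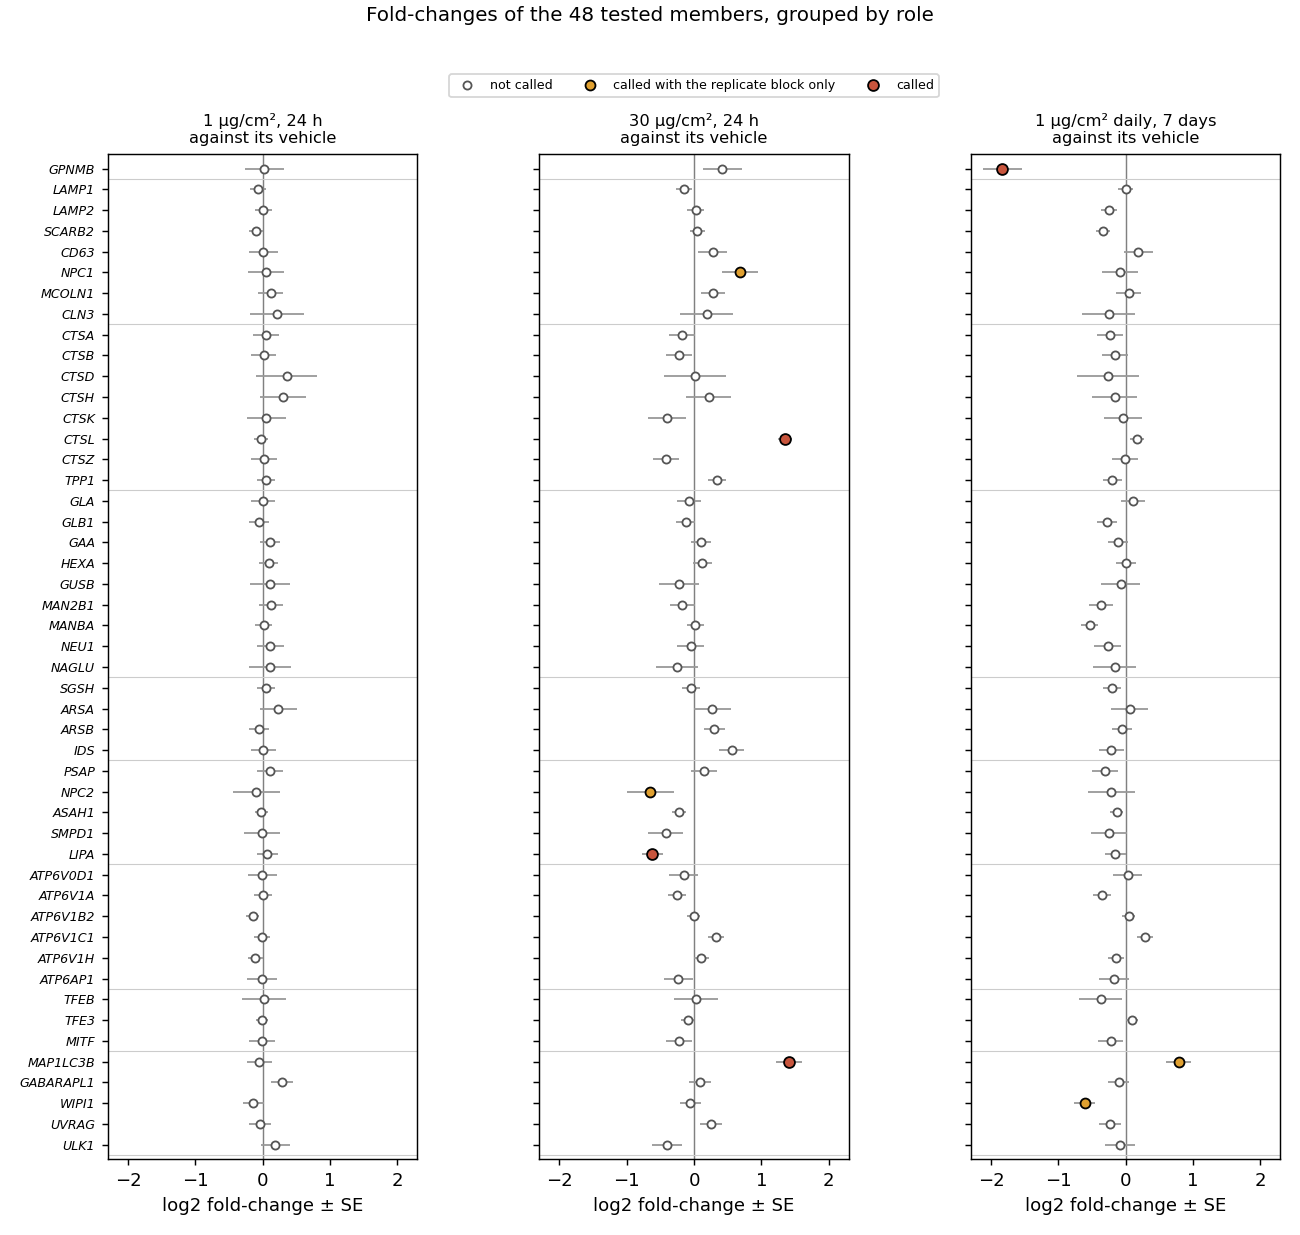
Log2 fold-change (horizontal axes, lines ± SE) of the 48 tested members (rows, grouped by role) after 1 or 30 µg/cm2 for 24 h and after daily 1 µg/cm2, each against its vehicle. Red points were called, 3 at 30 µg/cm2 and 1 after daily exposure, and amber points only with the replicate block, 2 in each of these.

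Among the proteases, *CTSL* (ENSG00000135047.14, chromosome 9 from 87725519 to 87731393), the cysteine protease cathepsin L, rose in every experiment. Its level was 104, 114 and 125 CPM in vehicle and 291, 287 and 297 CPM at 30 µg/cm2, and the groups did not overlap. At 1 µg/cm2 it was 107, 108 and 123 CPM, within the range of the controls. The log2 fold-change at 30 µg/cm2 was 1.35 (SE 0.108, adjusted p = 1.18e-05, edgeR quasi-likelihood test), or 2.55-fold, and 1.49, 1.32 and 1.24 within experiments 1, 2 and 3. It was called with each of the 15 libraries left out. The 7 pseudogenes of *CTSL* in the table held at most 4 counts in any library. After daily 1 µg/cm2 the level was 175, 159 and 149 CPM against 143, 138 and 147 CPM, above in all 9 pairs, with a log2 fold-change of 0.17 that did not pass the test. The response to daily exposure was below that to 30 µg/cm2 by a log2 difference of -1.17 (SE 0.150, adjusted p = 0.00187, edgeR quasi-likelihood test). The other 7 proteases had log2 fold-changes at 30 µg/cm2 from -0.41 for *CTSZ* to 0.34 for the tripeptidyl peptidase *TPP1*, none of which was called.

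*MAP1LC3B* (ENSG00000140941.12, chromosome 16 from 87383995 to 87404779) also rose, by unequal amounts in the 3 experiments. Vehicle libraries were at 34.0, 41.1 and 38.1 CPM and those at 30 µg/cm2 at 113, 66.0 and 122 CPM. All treated libraries were above all controls, with experiment 2 the lowest of them. At 1 µg/cm2 the level was 31.6, 41.8 and 36.2 CPM. The log2 fold-change at 30 µg/cm2 was 1.41 (SE 0.190, adjusted p = 0.000378, edgeR quasi-likelihood test), with 1.72, 0.69 and 1.68 within experiments 1, 2 and 3 and 1.69 without experiment 2. Its near-identical copy *MAP1LC3B2* held 10 to 67 counts per library, and 150 exon bases of *MAP1LC3B* are shared with *FBXO31* on the other strand. The other 4 autophagy members lay between -0.40 for *ULK1* and 0.25 for *UVRAG* on the log2 scale and were not called.

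*LIPA*, the lysosomal acid lipase that frees cholesterol and fatty acids from their esters, fell at 30 µg/cm2. Its level was 139.7, 126 and 152 CPM in vehicle and 79.7, 106 and 85.6 CPM after treatment, with no overlap and the smallest fall in experiment 2. At 1 µg/cm2 it was 153, 111 and 174 CPM. The log2 fold-change at 30 µg/cm2 was -0.62 (SE 0.155, adjusted p = 0.0209, edgeR quasi-likelihood test), near the threshold of 0.6, and -0.83 without experiment 2. The call ended without replicate 3 of vehicle and without replicate 1 or 3 at 30 µg/cm2, with log2 fold-changes between -0.75 and -0.55 over the omissions. It also ended in a fit of the 9 libraries at 24 h alone (adjusted p = 0.127). *LIPA* shares 65 exon bases with *IFIT2* on the other strand.

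The Niemann-Pick pair, which moves cholesterol out of lysosomes, was called in opposite directions with the replicate block. *NPC1* was at 145, 103 and 139 CPM in vehicle and 242, 131 and 249 CPM at 30 µg/cm2. *NPC2* was at 226, 407 and 277 CPM in vehicle and 123, 331 and 126 CPM at 30 µg/cm2. In each experiment *NPC1* was above its own control and *NPC2* below, although the groups overlapped, with experiment 2 low in *NPC1* and high in *NPC2*. With the block, the log2 fold-change was 0.64 for *NPC1* (adjusted p = 0.000995) and -0.76 for *NPC2* (adjusted p = 0.00104), by edgeR's quasi-likelihood test. Without the block the values were 0.69 (adjusted p = 0.131) and -0.65 (adjusted p = 0.290, same test), and neither was called. Without experiment 2 they were 0.78 and -1.03, and both were called. Over the 15 omissions of 1 library the log2 fold-change ran from 0.53 to 0.93 for *NPC1* and from -1.29 to -0.38 for *NPC2*. Both were called without replicate 2 at 30 µg/cm2, where these values were 0.93 and -1.29, and *NPC1* also without replicate 2 at 1 µg/cm2 (0.68). *NPC1* shares 604 exon bases with *RMC1*, and *NPC2* shares 103 with *ISCA2*, each on the other strand. The block called 5 of 48 members, and 15.2% of all tested genes. Without experiment 2, 8 members and 19.1% of all genes were called, with *GPNMB*, *CTSZ* at -0.64 and the iduronate sulfatase *IDS* at 0.71 added to those 5.

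**Figure D4:**
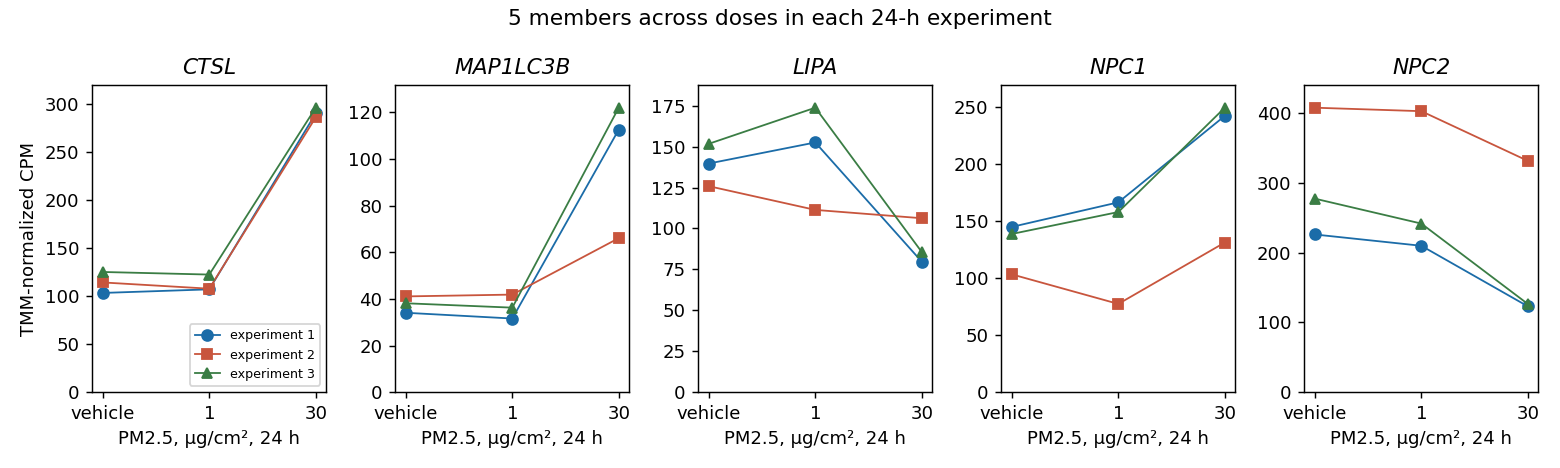
TMM-normalized CPM (vertical axes) of *CTSL*, *MAP1LC3B*, *LIPA*, *NPC1* and *NPC2* in the 24-h protocol against dose of PM2.5 (horizontal axes), with 1 line per experiment. The lines of *CTSL* nearly coincide, from 104 to 125 CPM in vehicle to 287 to 297 CPM at 30 µg/cm2, while experiment 2 departs from the others in the other genes.

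In the roles without a called member, the largest difference at 30 µg/cm2 among lysosomal membrane proteins was the 0.69 of *NPC1* given above, larger in size than that of *LIPA*, and the other 6 tested members lay between -0.15 for *LAMP1* and 0.28 for *CD63*. Among sulfatases it was that of *IDS*, at 61.7, 58.2 and 61.3 CPM in vehicle and 99.5, 64.1 and 103 CPM at 30 µg/cm2, 0.56 above vehicle on the log2 scale (SE 0.184, adjusted p = 0.0725, edgeR quasi-likelihood test), and without experiment 2 it was 0.71 and was called. Among V-ATPase subunits it was that of *ATP6V1C1*, a stalk subunit, with 0.33, and the other 5 subunits lay between -0.25 and 0.11. Among the 9 glycosidases it was that of *NAGLU*, which acts on heparan sulfate, with -0.25, and the others lay between -0.22 and 0.12. The transcription factors *MITF*, *TFE3* and *TFEB* had log2 fold-changes of -0.22, -0.10 and 0.03. None of the 3 was called at any exposure.

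At 1 µg/cm2 for 24 h no member was called, with log2 fold-changes between -0.15 for *ATP6V1B2* and 0.36 for *CTSD*. No member had an unadjusted p under 0.05 in edgeR's test, DESeq2 called no member either, and 0.0625% of all tested genes were called (0.42% with the replicate block). In 1 member, *ATP6V1B2*, a subunit of the V-ATPase head, all 9 pairs went one way, which 4.44% of all genes did. Because a dose that passes and a dose that fails are not thereby shown to differ, 30 µg/cm2 was tested against 1 µg/cm2 directly. The same 3 members were called as against vehicle, where 7.84% of all tested genes were. The log2 differences were 1.37 for *CTSL* (SE 0.108), 1.45 for *MAP1LC3B* (SE 0.190) and -0.69 for *LIPA* (SE 0.155), with adjusted p of 4.14e-05, 0.000467 and 0.0124 by edgeR's quasi-likelihood test. With the replicate block *NPC1* and *NPC2* were added, at 0.65 and -0.65, and 15.6% of all genes were called. In the difference between the responses to daily exposure and to 30 µg/cm2, *GPNMB* and *CTSL* were called, 2 of 48 members and 1.82% of all genes. The block added *NPC1* at -0.72 and *IDS* at -0.73, with 14.6% of all genes called.

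Among the related lists at 30 µg/cm2, 6 of 103 genes were called, 3 higher and 3 lower, where 8.07% of all tested genes were. With the replicate block 12 were called, 6 higher and 6 lower, where 15.2% of all genes were, and without experiment 2 it was 17, 11 higher and 6 lower, where 19.1% were. *SQSTM1*, the autophagy receptor p62, was at 67.5, 70.4 and 71.8 CPM in vehicle and 258, 208 and 273 CPM at 30 µg/cm2. It was 1.82 higher on the log2 scale (SE 0.126, adjusted p = 5.62e-06, edgeR quasi-likelihood test). The study itself reports this rise from the same libraries and names *SQSTM1* with genes that respond to oxidative stress. *SORT1*, which carries hydrolases from the Golgi to endosomes, was at 235, 218 and 211 CPM and at 89.2, 117 and 87.6 CPM, a log2 fold-change of -1.18. The mitophagy receptor *BNIP3L* (-0.79) and the sialic acid exporter *SLC17A5* (-0.67) were also lower. The mTORC1-binding GTPase *RRAGD* (0.75) and the V-ATPase subunit *ATP6V0A2* (0.75) were higher. None of the 27 genes of the autophagy machinery was called by edgeR's quasi-likelihood test in the fit without the block. With the block the same test called 2 of them, *EPG5* (0.60), which acts in the fusion of autophagosomes with lysosomes, and *GABARAP* (-1.02), a relative of LC3B, and without experiment 2 it called 3, 2 higher and 1 lower.

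More members differed between the vehicle controls of the protocols than after any exposure, 9 of 48 where 21.9% of all tested genes were called. This share is close to that of all genes, and the members are named because they passed the test. Besides *GPNMB*, higher at 7 days by 2.33 (SE 0.299, adjusted p = 0.000107, edgeR quasi-likelihood test), these were *MITF*, *MANBA* and *UVRAG*. *MITF* was at 10.99, 10.5 and 10.7 CPM at 24 h and 21.7, 23.2 and 23.9 CPM at 7 days, a log2 fold-change of 1.09. *MANBA* and *UVRAG* were higher by 0.85 and 0.84. The 5 lower members were *GLA*, the alpha-galactosidase, at 60.4, 71.6 and 68.5 CPM at 24 h and 29.0, 26.6 and 30.0 CPM at 7 days, a log2 fold-change of -1.23, and with it *CTSZ* (-0.82), *CD63* (-0.77) and the V-ATPase subunits *ATP6V0D1* (-0.99) and *ATP6V1B2* (-0.86). In these 9 members no 24-h control overlapped a 7-day control. Over all members the groups did not overlap in 30, of which 17 were higher and 13 lower at 7 days, and 52.3% of all genes did not overlap. *MITF* after daily exposure was at 19.5, 19.5 and 19.9 CPM, a log2 fold-change of -0.22 against its controls that did not pass the test. Its relatives did not move together between the controls, and neither was called. *TFE3* was lower at 7 days without overlap (-0.55), at 89.7, 86.6 and 95.1 CPM at 24 h and 61.3, 62.0 and 62.7 CPM at 7 days. *TFEB* was higher by 0.52, with overlap.

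Leaving out 24-h experiment 2 raised the count to 17 members, where 31.0% of all tested genes were called. The call of *CD63* ended without replicate 2 of the 24-h controls and without replicate 2 or 3 of the 7-day controls, and the other 8 kept theirs with each library left out. Of the 103 related genes 16 were called between the controls in the fit of all libraries, 11 higher and 5 lower at 7 days, where 21.9% of all tested genes were called, and 24 were called without 24-h experiment 2. Of these, *RETREG1*, a receptor for the turnover of endoplasmic reticulum, had the largest change, 2.58 on the log2 scale, from 2.80, 3.53 and 2.62 CPM to 17.9, 18.6 and 16.8 CPM. *FLCN* (1.00) and *FNIP1* (1.33), which encode partners in a complex that controls TFEB and TFE3 at the lysosome, were also higher. *RETREG1*, *FLCN* and *FNIP1* were chosen after their values were seen. The list of lysosomal mTORC1 control, which holds *FLCN* and *FNIP1*, was divided, with 8 of its 27 genes called, 4 higher and 4 lower. The lower genes were *AKT1S1* (-0.88), *LAMTOR1* (-0.79), *RRAGA* (-0.76) and *DDIT4* (-0.67).

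**Figure D5:**
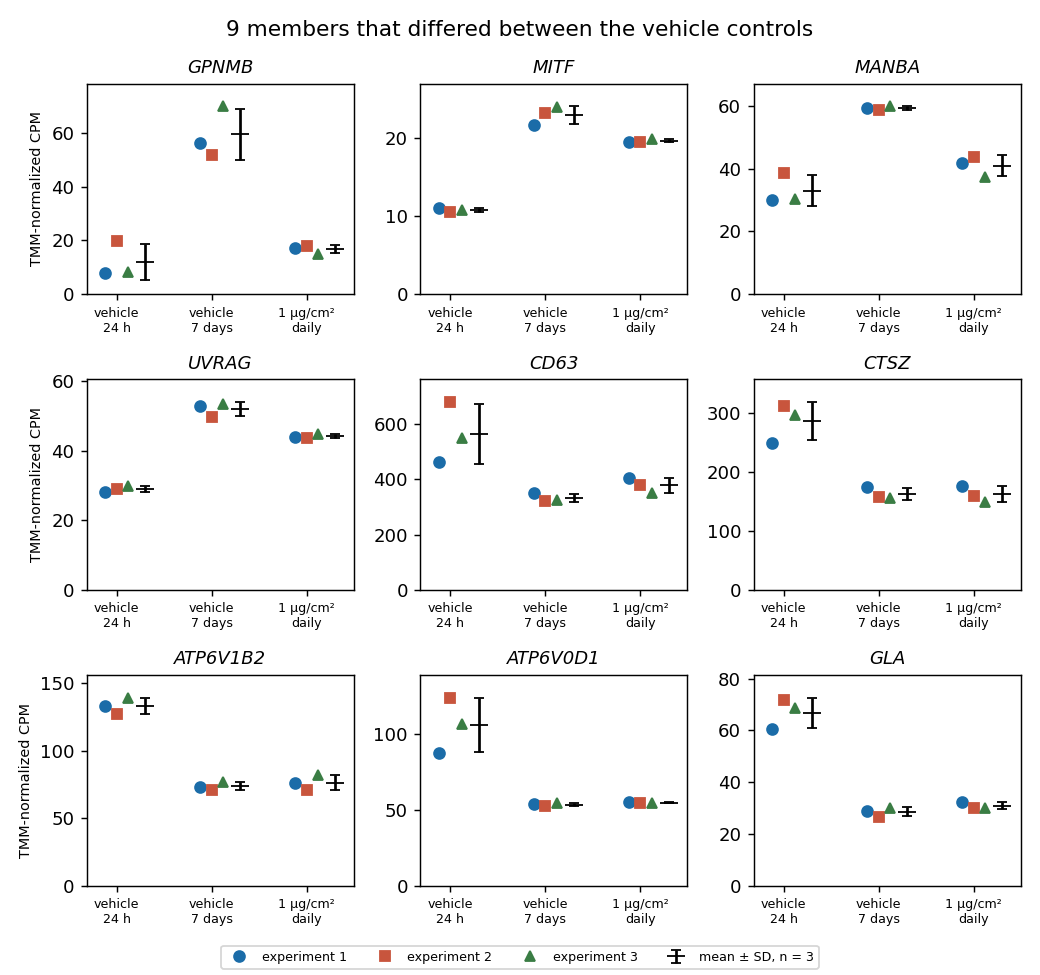
TMM-normalized CPM (vertical axes) of the 9 members called between the vehicle controls, in vehicle at 24 h, vehicle at 7 days and daily 1 µg/cm2 (horizontal axes), with 1 symbol per experiment and the mean ± SD of 3 experiments. *GPNMB* after daily exposure lies at 15.003 to 18.0 CPM, between the 24-h controls at 7.74 and 8.18 CPM and that at 19.9 CPM. *GLA* after daily exposure lies at 29.9 to 32.4 CPM beside its 7-day controls.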

How the data were processed

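RNA of 15 BEAS-2B libraries, 3 experiments in each of 5 conditions, was analysed. The authors aligned single-end reads to GRCh38 with STAR, counted reads per gene with featureCounts and deposited the raw counts with gene coordinates and exon lengths. The submitters' processing notes name hg19, but 99.9% of the coordinates overlap the same gene in GENCODE 44 on GRCh38, which also supplied the gene names. Annotation and strand setting are not given in the sources used here. The members, the related lists and the markers were chosen with earlier results of these data known.

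Counts were tested in R 4.3.3 with edgeR 4.0.16 (filterByExpr by condition, TMM, quasi-likelihood test in its earlier mode, one mean per condition, all 15 libraries, Benjamini-Hochberg adjustment over 17599 genes). Calls needed an adjusted p under 0.05 and a log2 fold-change of 0.6 or more in size. SEs were derived from the F statistic of each contrast. Within-experiment values are differences of log2 CPM with a prior count of 0.5. The script was tested on simulated data.

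Library totals were 21460981 to 34724765 counts, with a median of 29243177. Samples were grouped by their labels. The series record names the last number of a sample as its batch, so equal numbers were paired within a protocol. Across genes, deviations from the group means correlated between equal numbers at 0.175 to 0.680 at 24 h and 0.0965 to 0.139 at 7 days, and between unequal numbers at -0.638 to 0.403 and -0.0982 to -0.0291. The methods of the study state that each protocol was carried out 3 independent times. The cultures behind each repeat are not described further, so p-values measure the spread between these libraries. Alternatives were RLE scaling, no filter or a filter of 1 CPM in 3 libraries, a replicate block, the libraries of 1 protocol, edgeR's current mode, DESeq2 1.42.0, and omission of each library or of 24-h experiment 2. Added after the data were seen were the block within 1 protocol and counts of non-overlapping members without libraries that stood apart. Per-library values are given for *GPNMB* and members called in a treatment comparison, for other members the largest change at 30 µg/cm2 in each role without a call, and further ones are named as called or chosen after their values were seen. Tables and figures were made with Python 3.11.15, pandas 2.3.3 and matplotlib 3.10.9.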

Additional observations from a re-analysis of the deposited data

Results flagged for a closer look

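The response of *GPNMB* differed between daily 1 µg/cm2 and a single 30 µg/cm2 by a test of the difference itself. Against a single 1 µg/cm2 the difference of -1.85 was not called (adjusted p = 0.351, edgeR quasi-likelihood test). With the replicate block it was -1.93 and was called (adjusted p = 0.0386, same test). Both differences contain the daily fall of *GPNMB* that was known when the members were chosen, so they are no independent support for it. The log2 response to daily 1 µg/cm2 minus that to a single 30 µg/cm2 was -2.24 (adjusted p = 0.0134, edgeR quasi-likelihood test), and exposed cells were below their own control in each of the 3 daily experiments.

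The response of *CTSL* differed in the same contrast, by -1.17 on the log2 scale (adjusted p = 0.00187, same test). Dose, number of exposures and time in culture differ together in this contrast and cannot be told apart.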

How the results depend on the processing

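Over 611 fold-changes of named members under an alternative, none reversed, 554 kept direction and call, 19 lost the call and 38 gained one. The number of members called at 30 µg/cm2 against vehicle (3) was 5 with the replicate block, 5 with the block in the 24-h libraries alone, 8 without experiment 2 and 2 to 7 with 1 library left out. Against 1 µg/cm2 (3) it was 5 with the block in both fits and 2 to 7 with 1 library left out. After daily exposure (1) it was 2 with no filter, 3 with the block in both fits, with DESeq2, without experiment 2 and in the libraries of the protocol alone, and 0 to 2 with 1 library left out. Between the controls (9) it was 17 without experiment 2 and 8 to 14 with 1 library left out. For daily minus single 1 µg/cm2 (0) it was 1 with no filter, with the block and with DESeq2, 4 without experiment 2 and 0 to 1 with 1 library left out. For daily minus 30 µg/cm2 (2) it was 4 with the block, 14 without experiment 2 and 2 to 4 with 1 library left out. At 1 µg/cm2 it was 0 in every alternative run. Members with all pairs one way at 30 µg/cm2 numbered 8 over 9 pairs and 38 over the 4 pairs left without experiment 2, where fewer pairs need to agree. The replicate block changed no call beyond those in these counts.

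The counts over all tested genes, without leaving out single libraries, ranged from 545 to 3430 at 30 µg/cm2 against vehicle (1420 in the reported fit), from 425 to 3113 against 1 µg/cm2 (1379), from 3 to 378 at 1 µg/cm2 (11), from 40 to 1181 after daily exposure (40), from 3575 to 5564 between the controls (3860), from 0 to 1766 for daily minus single 1 µg/cm2 (0) and from 320 to 3884 for daily minus 30 µg/cm2 (320). The lowest counts at 24 h came from the libraries of that protocol alone and, other than after daily exposure, the highest from leaving out experiment 2. *CLN3* held 9 to 40 counts per library, and *CD68*, which was not tested, 0 to 3.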
